A study of Mus musculus with 18 samples.

Results

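Extracellular matrix genes were followed from chronically irradiated skin through papilloma to squamous cell carcinoma in the same mice. The set comprised 7 small leucine-rich proteoglycans (SLRPs), namely decorin (Dcn), biglycan (Bgn), asporin (Aspn), lumican (Lum), fibromodulin (Fmod), prolargin (Prelp) and osteoglycin (Ogn), together with cartilage intermediate layer protein (Cilp) and the matricellular genes periostin (Postn) and tenascin C (Tnc). The 10 genes were chosen by name as matrix genes typical of resident dermis or of tumour stroma, with earlier results of these data known. All 10 were found among the 14521 named genes of the table. RNA was sequenced from 6 female littermates of SKH-1E, a hairless outbred strain prone to ultraviolet-driven skin tumours. All of the mice had been exposed from young adulthood to repeated ultraviolet B from solar simulators and were sampled after a pause without irradiation. From each mouse came 1 sample of irradiated skin free of lesions (CHR), 1 of a benign epidermal papilloma (PAP) and 1 of a cutaneous squamous cell carcinoma (SCC), so that n = 6 in each group and the 3 libraries of a mouse shared 1 animal. There was no unirradiated skin among these samples, and the comparison group was itself sun-damaged skin. The lesions had been judged by histology to consist mostly of tumour cells, and the samples were pieces of whole tissue rather than sorted cells.

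SLRPs are secreted proteins with a core of leucine-rich repeats. Several of them carry glycosaminoglycan chains and bind collagen fibrils, whose thickness and spacing they limit, and decorin and biglycan also bind growth factors such as those of the TGF-beta family. Dermal fibroblasts make most of the decorin and lumican of skin. Matricellular proteins are different in kind, since they are secreted into the matrix without bearing load and act on cells through integrins and other receptors. Periostin and tenascin C are scarce in resting adult dermis, appear in wounds, and are well known from the stroma of carcinomas.

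Several of these genes lie in pairs or clusters on the mouse genome (GRCm38, GENCODE M21). Dcn (chr10:97479609-97518143, plus strand) was followed by Lum (chr10:97565128-97572703, plus strand) after a gap of 47.0 kb. Prelp (chr1:133910304-133921414, minus strand) and Fmod (chr1:134037254-134048277, plus strand) were 115.8 kb apart. Aspn (chr13:49544443-49567565, plus strand) and Ogn (chr13:49608046-49624501, plus strand) were 40.5 kb apart, with osteomodulin (Omd) between them and Ecm2 before them, and both lay within the span of Cenpp on the opposite strand, with which Aspn shared 7 exonic bases and Ogn 0. Bgn (chrX:73483602-73495933, plus strand), Cilp (chr9:65265180-65280605, plus strand), Postn (chr3:54361109-54391037, plus strand) and Tnc (chr4:63959785-64047015, minus strand) stood alone. Of the other annotated neighbours, an antisense RNA covered 9.7% of the exonic bases of Prelp and a non-coding transcript 2.3% of those of Tnc, and reads from these could not be told apart without strand.

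The upstream sequences of 4 genes are given, namely the pair of matricellular genes and the neighbours Aspn and Ogn. Of these neighbours, Ogn was called lower in carcinoma than in CHR and Aspn was not. Each is the 250 bases before an annotated start site (RefSeq, GRCm38.p6), read 5′ to 3′ on the strand of the gene, with motif matches in capitals. The regions were chr3:54360857-54361106 (Postn, plus strand), chr4:64047016-64047265 (Tnc, minus strand), chr13:49544193-49544442 (Aspn, plus strand) and chr13:49607765-49608014 (Ogn, plus strand).
Postn: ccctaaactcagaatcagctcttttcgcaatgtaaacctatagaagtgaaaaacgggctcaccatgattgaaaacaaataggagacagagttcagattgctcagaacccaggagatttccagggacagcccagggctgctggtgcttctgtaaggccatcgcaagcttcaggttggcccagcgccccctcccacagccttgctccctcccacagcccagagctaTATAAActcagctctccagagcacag
Tnc: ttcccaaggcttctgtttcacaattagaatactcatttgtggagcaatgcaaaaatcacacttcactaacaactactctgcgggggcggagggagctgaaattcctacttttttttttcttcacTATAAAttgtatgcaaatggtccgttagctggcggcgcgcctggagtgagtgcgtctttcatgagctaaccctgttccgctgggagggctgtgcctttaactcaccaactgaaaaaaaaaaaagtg
Aspn: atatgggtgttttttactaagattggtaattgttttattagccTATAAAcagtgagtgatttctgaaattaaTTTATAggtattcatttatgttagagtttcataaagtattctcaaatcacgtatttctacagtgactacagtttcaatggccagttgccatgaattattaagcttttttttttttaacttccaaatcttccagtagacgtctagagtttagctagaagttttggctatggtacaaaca
Ogn: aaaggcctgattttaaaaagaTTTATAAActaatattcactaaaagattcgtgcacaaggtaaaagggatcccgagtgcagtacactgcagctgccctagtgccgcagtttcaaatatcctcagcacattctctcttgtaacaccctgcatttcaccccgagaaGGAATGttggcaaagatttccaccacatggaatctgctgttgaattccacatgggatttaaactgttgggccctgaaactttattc
For the motifs, 4 short patterns were searched on both strands in the entries of 8 of the 10 genes, since Dcn and Lum had no entry. The TATA box pattern, with the letters TATAAA, was present 26 bases before this start of Postn, 126 bases before that of Tnc, 207 and 178 bases before that of Aspn and 229 and 227 bases before that of Ogn, where the matches on opposite strands overlapped, against 12.4% of 32851 promoters of the same length that held it. GGAATG, a site of TEAD factors, was found 86 bases before the start of Ogn and is held by 12.6% of promoters. CAGACA, a SMAD element held by 17.1% of promoters, was matched only before a second annotated start of Tnc, and TGANTCA, an AP-1 site held by 6.75% of promoters, in none of the 8 genes. The upstream entries of Prelp, Fmod, Cilp and Bgn held no exact match to the 4 patterns. Near matches were not counted, and whether any match works as a site was not tested.

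Reads recovered from the deposited values summed to 15.4 to 21.0 M per library over the genes of the table, which is not the sequencing depth. Levels are given as normalised read counts, that is, reads per gene divided by the size factor of the library. Marker RNA of several cell types differed between groups. The summed normalised count of 10 keratinocyte markers ranged from 289300 to 467476 in CHR, from 797236 to 1380208 in PAP and from 265513 to 906696 in SCC. The sum of 14 fibroblast markers ranged from 140265 to 320056 in CHR, from 7828 to 172246 in PAP and from 22917 to 503025 in SCC, and that of 10 skeletal muscle markers was 388583 to 581976, 306 to 29225 and 411 to 194966. One animal stood apart. The papilloma and the carcinoma of mouse 10 were each the lowest library of their group for all 10 genes, their fibroblast marker sums (7828 and 22917) were the lowest of their groups, and its carcinoma lay among the papillomas on the first principal component (59.9, against −15.6 to 28.8 for the other 5 carcinomas). In pieces of whole tissue, fewer cells of a type and less RNA per cell cannot be told apart, and this holds for every value that follows.

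Papillomas held less RNA of most of the 10 genes than CHR of the same mice. All 7 SLRPs and Cilp fell in PAP vs CHR (8 of 10 genes), while Postn and Tnc did not pass the test in this comparison, and 29.3% of all genes tested were called lower and 23.3% higher in PAP. In 6 of the 10 genes the PAP and CHR ranges did not overlap, which was the case with PAP lower for 19.2% of all genes. From PAP to SCC, 6 of 10 genes rose (Dcn, Bgn, Aspn, Fmod, Prelp and Cilp), against 8.75% of all genes called higher in SCC, and in 0 of 10 genes were the ranges apart, against 0.255% of all genes. In SCC vs CHR, 3 genes were lower (Dcn, Ogn and Prelp, with 22.7% of all genes called lower) and Tnc alone was higher (15.8% of all genes were called higher), and in the same 3 lower genes the ranges were apart, against 11.2% of all genes. The test was that of limma on log2(value + 1) of the deposited values with the mouse as a block, two-sided, with Benjamini-Hochberg adjustment over 14521 genes and a threshold of 0.05. The calls in SCC vs PAP depended on the fit: with no replicate block 2 of 10 genes passed (Cilp and Fmod), with the PAP and SCC libraries alone 0 passed (limma, with 2830 of all genes at an unadjusted p under 0.05), without mouse 7 or mouse 8 0 passed, without mouse 3 only Cilp passed, and without mouse 9 or mouse 10 8 passed.

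**Figure D1:**
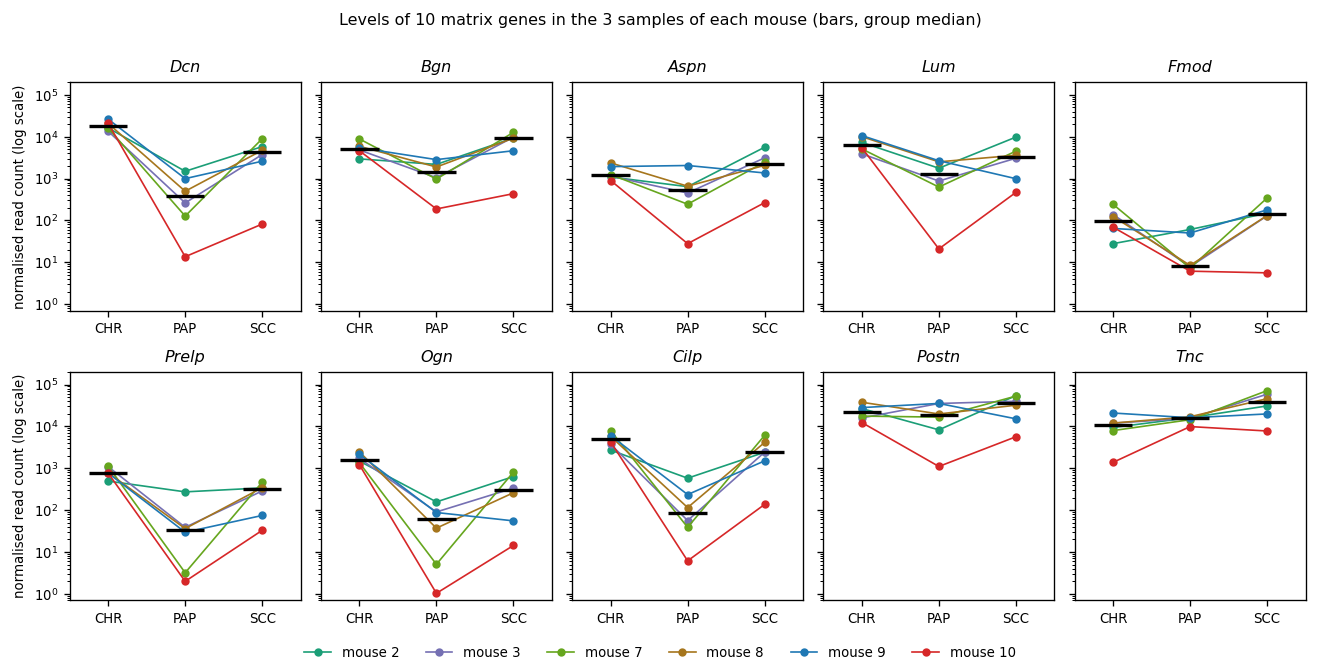
Normalised read counts (log axis) of the 10 genes in CHR, PAP and SCC, with 1 line per mouse and a bar at each group's median. The medians of the 7 SLRPs and Cilp are lowest in PAP, the Postn ranges overlap between all 3 groups, the Tnc median is highest in SCC, and mouse 10 (red) is the lowest line in PAP and SCC throughout.

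Decorin, biglycan and asporin form class I of the family, and only Dcn among them was called in SCC vs CHR. Dcn had 13485, 18456 and 26264 normalised counts in CHR (lowest, median and highest of 6 libraries), 13.6, 380 and 1493 in PAP, and 81.9, 4241 and 8939 in SCC. Every PAP and every SCC library was thus below every CHR library. Its mean of 18916 ± 4607 in CHR (SD, n = 6) compared with 565 ± 573 in PAP and 4317 ± 2998 in SCC, which was 33.5-fold lower in PAP and 4.38-fold lower in SCC than in CHR. On the log2(value + 1) scale the change was −5.51 ± 0.68 (SE) in PAP vs CHR (limma, adjusted p = 2.49e-05; −6.11 ± 0.85 on log2(normalised count + 1)), 2.73 ± 0.68 in SCC vs PAP (adjusted p = 0.0257, higher in 6 of 6 mice) and −2.78 ± 0.68 in SCC vs CHR (adjusted p = 0.00648, lower in 6 of 6 mice). Without mouse 10, the SCC vs CHR change of Dcn was −1.91 ± 0.48 (adjusted p = 0.0113).

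Biglycan is the class I member with a pair of glycosaminoglycan chains. Bgn had 2953, 5141 and 8826 normalised counts in CHR, 188, 1468 and 2836 in PAP, and 436, 9280 and 12709 in SCC. PAP lay below CHR with no overlap, and 4 of the 6 carcinomas were above every CHR library. Bgn fell by 2.05 ± 0.52 on the log2 scale in PAP vs CHR (adjusted p = 0.00494) and rose by 2.12 ± 0.52 in SCC vs PAP (adjusted p = 0.025, 6 of 6 mice). Between SCC and CHR the difference was 0.06 with a 95% interval from −1.06 to 1.18. It was 0.71 ± 0.37 without mouse 10 (adjusted p = 0.166).

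Asporin, which binds collagen and TGF-beta and has no glycosaminoglycan chain of the usual kind, had 899, 1196 and 2368 normalised counts in CHR. It had 27.9, 546 and 2052 in PAP and 266, 2274 and 5608 in SCC. The groups overlapped, and mouse 9 was the exception in both steps, with 2052 in its papilloma against 1930 in its CHR and 1362 in its carcinoma. Aspn changed by −1.51 ± 0.48 in PAP vs CHR (adjusted p = 0.0174, 5 of 6 mice), a call that was lost without mouse 7, 8 or 10 (highest adjusted p = 0.0649) and with no replicate block (adjusted p = 0.0585). It rose by 1.92 ± 0.48 in SCC vs PAP (adjusted p = 0.026, 5 of 6 mice). The SCC vs CHR difference was 0.41 ± 0.48 (adjusted p = 0.529), with 3 mice higher and 3 lower.

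Lumican, fibromodulin and prolargin belong to class II, whose members carry keratan sulphate or none. Lum, the neighbour of Dcn, had 3890, 6373 and 10639 normalised counts in CHR, 20.9, 1321 and 2668 in PAP, and 467, 3331 and 9773 in SCC. The carcinomas of mice 2 and 10 marked the ends of the SCC range, which overlapped both other groups. The fall in PAP vs CHR was −2.83 ± 0.59 (adjusted p = 0.0014) with no overlap, and −2.17 ± 0.50 without mouse 10 (adjusted p = 0.00448). Neither SCC vs PAP (1.46 ± 0.59, adjusted p = 0.141, higher in 5 of 6 mice) nor SCC vs CHR (−1.37 ± 0.59, adjusted p = 0.0816, lower in 5 of 6 mice) passed the test, and SCC vs PAP passed without mouse 9 (adjusted p = 0.0433).

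Fibromodulin, a modulator of collagen fibril assembly, was the lowest of the 10 genes. Fmod had 27.9, 96.3 and 242 normalised counts in CHR, 6.14, 8.14 and 60.8 in PAP, and 5.6, 140 and 344 in SCC. Of the 6 papillomas, 4 held 6.14 to 8.44 counts, and the papillomas of mice 2 and 9 held 60.8 and 50.1. On the deposited scale, which compresses low values, the change was −1.11 ± 0.36 in PAP vs CHR (adjusted p = 0.0188) and 1.34 ± 0.36 in SCC vs PAP (adjusted p = 0.0326), with 5 of 6 mice in the same direction in each. Fitted with limma-voom on recovered reads, they were −2.40 (adjusted p = 0.0133) and 3.03 (adjusted p = 0.0179), and on log2(normalised count + 1) the SCC vs PAP change was 2.68 ± 0.79 and did not pass (adjusted p = 0.0524). The fall in PAP did not pass without mouse 3, 7 or 8 (highest adjusted p = 0.0726). Between SCC and CHR the difference was 0.23 with a 95% interval from −0.54 to 1.0.

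Prolargin anchors basement membranes to the connective tissue beneath. Prelp had 494, 771 and 1122 normalised counts in CHR, 1.99, 32.9 and 273 in PAP, and 32.9, 313 and 465 in SCC. Both lesions were below every CHR library, and the papilloma of mouse 2 (273) was far above the next highest (38.8). The change was −3.18 ± 0.42 in PAP vs CHR (adjusted p = 4.43e-05), 1.51 ± 0.42 in SCC vs PAP (adjusted p = 0.0392, 6 of 6 mice) and −1.67 ± 0.42 in SCC vs CHR (adjusted p = 0.00782). In PAP vs CHR limma-voom gave −4.36 and log2(normalised count + 1) gave −5.12, and in SCC vs PAP they gave 2.56 and 3.0. On log2(normalised count + 1) the SCC vs CHR difference was −2.12 ± 0.82 and did not pass (adjusted p = 0.0611).

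Osteoglycin, a class III member, was among the 3 genes called lower in SCC than in CHR. Ogn had 1210, 1597 and 2456 normalised counts in CHR, 1.03, 62.3 and 157 in PAP, and 14.3, 298 and 810 in SCC. All lesions of both kinds were below all CHR libraries. The change was −4.02 ± 0.46 in PAP vs CHR (adjusted p = 1.54e-05) and −2.54 ± 0.46 in SCC vs CHR (adjusted p = 0.00115), each in 6 of 6 mice. In PAP vs CHR limma-voom gave −5.20 and log2(normalised count + 1) gave −5.85, and in SCC vs CHR they gave −2.79 and −3.18. SCC vs PAP did not pass (1.49 ± 0.46, adjusted p = 0.0607, higher in 5 of 6 mice), and limma-voom gave 2.41 there (adjusted p = 0.054). Aspn and Ogn, whose upstream sequences are printed above and which lie 40.5 kb apart, had a ratio of mean SCC to mean CHR level of 1.72 and 0.204. Aspn was not called in SCC vs CHR, and its change there was 0.03 ± 0.50 without mouse 2. The difference between the 2 genes was not tested.

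Cilp, a secreted protein first known from cartilage that is also made by fibroblasts, had the steepest rise from papilloma to carcinoma among the 10 genes. It had 2708, 5019 and 7900 normalised counts in CHR, 6.14, 85.7 and 579 in PAP, and 137, 2419 and 6114 in SCC. The papillomas were below every CHR library, and the carcinoma was above the papilloma and below the CHR of the same mouse in 6 of 6 mice. The change was −4.80 ± 0.58 in PAP vs CHR (adjusted p = 2.27e-05) and 3.48 ± 0.58 in SCC vs PAP (adjusted p = 0.00965). The corresponding values were −5.53 and 4.23 with limma-voom and −5.90 and 4.47 on log2(normalised count + 1). In SCC vs CHR it was −1.32 ± 0.58 (adjusted p = 0.0894), and −0.71 ± 0.52 without mouse 10 (adjusted p = 0.318).

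Periostin, the first of the pair of matricellular genes, is a ligand of integrins that takes part in collagen cross-linking. Postn had 12346, 22113 and 37696 normalised counts in CHR, 1103, 18236 and 35328 in PAP, and 5646, 35947 and 54151 in SCC. The ranges of all 3 groups overlapped. The change was −0.77 in PAP vs CHR (95% interval −1.88 to 0.35, adjusted p = 0.23), 1.05 in SCC vs PAP (−0.07 to 2.16, adjusted p = 0.232, higher in 5 of 6 mice) and 0.28 in SCC vs CHR (−0.83 to 1.39, adjusted p = 0.699, higher in 3 of 6 mice). No alternative fit or left-out mouse brought Postn past the threshold in any of the 3 comparisons.

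Tenascin C, a large hexameric glycoprotein that weakens cell adhesion to fibronectin, was the gene of the 10 that rose in carcinoma over CHR. Tnc had 1384, 10687 and 20863 normalised counts in CHR, 9895, 15863 and 17014 in PAP, and 7761, 38322 and 71405 in SCC. In 5 papillomas it lay at 14461 to 17014, and the CHR of mouse 10 (1384) was far below the other 5 CHR libraries (7946 to 20863). The mean was 39060 ± 24066 in SCC against 10594 ± 6362 in CHR, a 3.69-fold difference, and the change was 1.90 ± 0.38 (95% interval 1.08 to 2.72, adjusted p = 0.00196), higher in 5 of 6 mice. Mouse 9 was the exception, with 19836 in its carcinoma and 20863 in its CHR. Without mouse 10 the change was 1.80 ± 0.34 (adjusted p = 0.0025). Neither single step passed: PAP vs CHR was 0.82 ± 0.38 (adjusted p = 0.0867, higher in 5 of 6 mice) and SCC vs PAP was 1.08 ± 0.38 (adjusted p = 0.092, 5 of 6 mice). PAP vs CHR passed without mouse 9 (adjusted p = 0.026) and when libraries were centred on their median (0.96, adjusted p = 0.046), and SCC vs PAP passed without mouse 10 (adjusted p = 0.0215) and without mouse 9.

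**Figure D2:**
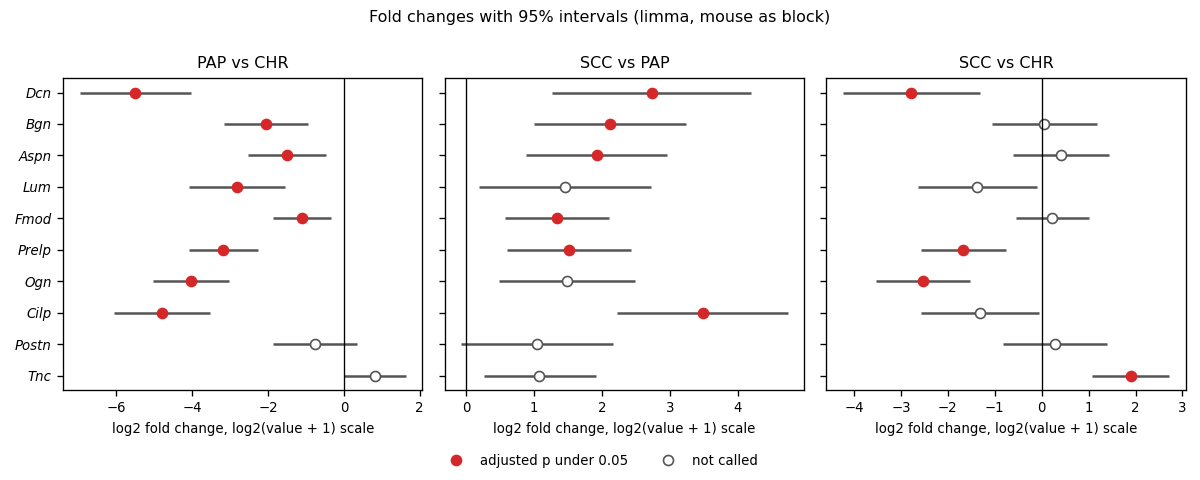
Fold changes of the 10 genes on the log2(value + 1) scale with 95% intervals in the 3 comparisons, with filled points for an adjusted p under 0.05. The 8 filled points in PAP vs CHR all lie left of 0, the 6 in SCC vs PAP all lie right of 0, and in SCC vs CHR Dcn, Prelp and Ogn lie left and Tnc right.

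The mean change of the 7 SLRPs and that of Postn and Tnc differed in the same direction in all 6 mice in each comparison. Within mice, the mean change of the 7 SLRPs in PAP vs CHR was −3.83 ± 1.98 on the log2(normalised count + 1) scale (SD over 6 mice), with a rise in 0 of 6 mice, and that of Postn and Tnc was 0.02 ± 0.47. The difference of these means was 3.86 ± 2.08 and above 0 in 6 of 6 mice, from 0.93 in mouse 2 to 6.61 in mouse 10. In SCC vs PAP the order turned, with 2.53 ± 1.52 for the SLRPs (higher in 6 of 6 mice) and 1.08 ± 0.86 for Postn and Tnc (5 of 6 mice). The difference there was −1.46 ± 1.0, from −3.05 in mouse 7 to only −0.07 in mouse 2. Between SCC and CHR the SLRPs were at −1.30 ± 1.76 and Postn and Tnc at 1.10 ± 0.99. The difference was 2.40 ± 1.45 and above 0 in 6 of 6 mice, from 0.86 in mouse 2 to 5.09 in mouse 10. Neither group was uniform in SCC vs CHR. Of the pair only Tnc was called higher, and Postn changed by 0.28 (limma, adjusted p = 0.699). Of the SLRPs, Dcn, Ogn and Prelp were called lower, while Lum (−1.37), Bgn (0.06), Aspn (0.41) and Fmod (0.23) were not called. On log2(value + 1) of the deposited values, the scale of the test, the differences between the pair and the SLRPs were 2.91 in PAP vs CHR, −0.73 in SCC vs PAP and 2.19 in SCC vs CHR. The comparisons share libraries, so these values are given side by side as a description, without a test.

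**Figure D3:**
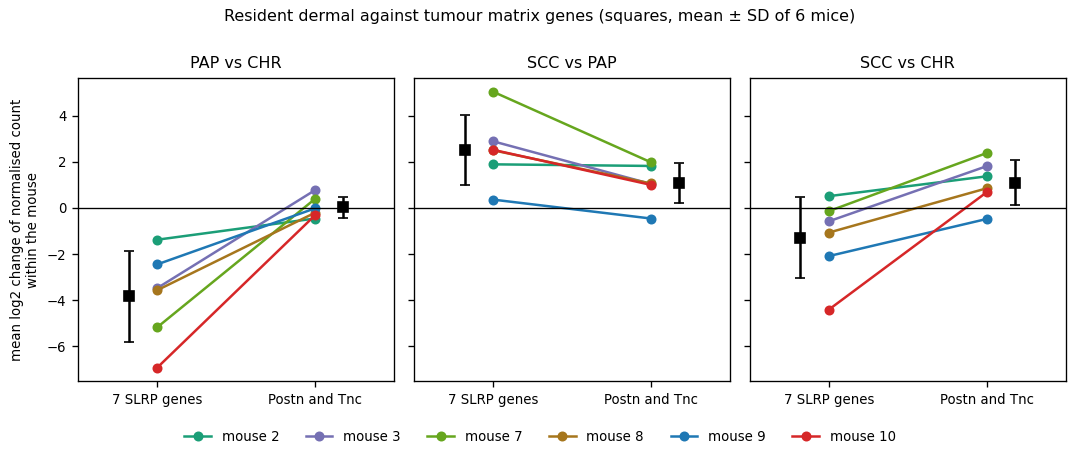
Mean log2 change of normalised count within each mouse for the 7 SLRP genes and for Postn and Tnc, in 3 comparisons, with 1 line per mouse and squares for the mean ± SD of 6 mice. Every line rises from left to right in the panels with CHR as reference, where the difference was above 0 in 6 of 6 mice, and none does in SCC vs PAP.

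The order of the levels changed with the lesion. Per kilobase of exon, the median normalised count in CHR was 3161 for Dcn, 2604 for Lum, 2541 for Postn and 1375 for Tnc, followed by Cilp (1180), Bgn (843), Ogn (622), Aspn (508), Prelp (213) and Fmod (29.1). Of the neighbours in this order, only Aspn and Prelp, and Prelp and Fmod, had ranges that did not overlap. In PAP, Postn (2096) and Tnc (2041) led, and Tnc was apart from Lum (540), while Dcn had fallen to the sixth place (65.2). In SCC, Tnc (4931) and Postn (4131) led before Bgn (1522), Lum (1361), Aspn (966) and Dcn (726), and all neighbours in the order overlapped. The ratio of Tnc to Dcn per kilobase had a median of 0.436 in CHR (0.0499 to 0.665), of 35.3 in PAP (8.12 to 546) and of 6.64 in SCC (3.99 to 71.1). Tnc was thus below Dcn in all 6 CHR libraries and above it in all 12 lesions.

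The lower SLRP levels of papillomas went together with lower levels of other fibroblast genes. The mean of 14 fibroblast markers, which included none of the 10 genes, changed within mice by a median of −2.75 on the log2 scale in PAP vs CHR, 2.05 in SCC vs PAP and −0.26 in SCC vs CHR. Set against the mean of this list, Dcn, Ogn and Cilp were lower still in PAP. Their medians relative to it were −2.84, −3.10 and −3.08, with 0 of 6 mice above it. Single genes of the list ranged widely in PAP vs CHR, with limma changes on log2(value + 1) from −4.75 (Pi16) to −0.53. Dpt, also of the list, changed by −4.01, against −4.80 for Cilp, −4.02 for Ogn and −5.51 for Dcn. Prelp had a median of −2.20 relative to the list, with 1 of 6 mice above it (range −4.64 to 0.57). Lum and Fmod had medians of 0.12 and 0.22, with 3 of 6 mice above the list each. Bgn (0.87) and Aspn (0.90) were above the list in 6 of 6 mice, Tnc (3.20) in 6 of 6 and Postn (2.07) in 5 of 6. Skeletal muscle, immune and adipocyte markers fell in PAP as well, with 10 of 10, 8 of 8 and 7 of 8 genes called lower, against 29.3% of all genes. Of 10 keratinocyte markers 8 rose, against 23.3% of all genes, and 1 fell. In SCC vs PAP, 9 of 10 muscle, 6 of 8 immune, 8 of 14 fibroblast and 0 of 8 adipocyte markers were called higher, against 8.75% of all genes. With the PAP and SCC libraries alone in the fit, 0 of all genes were called. In SCC vs CHR, 22.7% of all genes were called lower and 15.8% higher. Among the markers, 10 of 10 muscle, 8 of 8 immune, 7 of 8 adipocyte and 4 of 14 fibroblast genes were lower there. Of 10 keratinocyte markers 5 were higher and 1 lower. The part of these marker shifts in the values of the 10 genes was not tested.

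In carcinoma the same measure went in both directions. Relative to the fibroblast list in SCC vs CHR, Ogn (−2.44), Dcn (−1.85), Prelp (−1.21) and Cilp (−0.57) were below 0 in 6 of 6 mice, mouse 10 included. Bgn (1.08), Aspn (1.22), Fmod (0.44), Postn (0.98) and Tnc (2.38) were above 0 in 6 of 6 mice. Lum (−0.26) was above 0 in 1. Single genes of the list ran from −2.35 (Dpt) to 0.71 in SCC vs CHR (limma, log2(value + 1)), with Pi16 at −2.28. On that scale Dcn changed by −2.78, Ogn by −2.54 and Prelp by −1.67. In the step from PAP to SCC, Cilp (2.54) and Dcn (0.97) rose more than the list in 6 of 6 mice, and Tnc (−0.95) less than the list in 6 of 6. These relative values are descriptions of 6 mice, with no test.

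**Figure D4:**
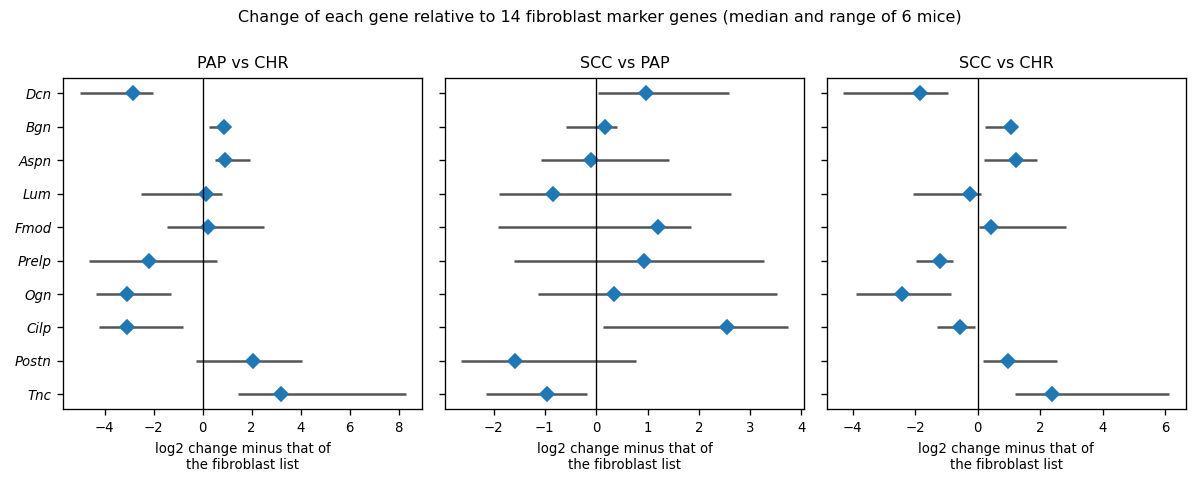
Log2 change of each gene within mice minus that of the mean of 14 fibroblast marker genes, in 3 comparisons, as median (diamond) and range (line) of 6 mice. In SCC vs CHR the lines of Dcn, Prelp, Ogn and Cilp lie wholly below 0 and those of Bgn, Aspn, Fmod, Postn and Tnc wholly above it.

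The study sorted genes into early, late and stepwise by a mixed model with the mouse as random effect, which asks for SCC and CHR to differ at an unadjusted p under 0.05 and for 1 or both of the steps to do so with the same sign. By this rule Dcn, Ogn and Prelp were early and lower, a class that held 22.6% of all genes. Tnc was late and higher, a class of 1.02% of all genes, but this class was not stable. Tnc had no step class without mouse 2, 3, 7 or 8 or with no replicate block, and it was stepwise without mouse 9. The other 6 genes were not called in SCC vs CHR and had no class, although Cilp was early and lower without mouse 2.

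Other SLRP genes were listed as well, and 7 of 11 were in the table. In PAP vs CHR 3 of the 7 fell, with a median of −0.62 against 0.00 over all genes. From PAP to SCC 3 rose, and against CHR the carcinomas were higher in 2 and lower in 3. Over all genes, 29.3% were called lower in PAP vs CHR, 8.75% higher in SCC vs PAP, and 15.8% higher and 22.7% lower in SCC vs CHR. Podn, a class V member, had a mean of 682 ± 129 in CHR, 51.8 ± 53.7 in PAP and 324 ± 185 in SCC, and its change in PAP vs CHR was −2.89 ± 0.41 (adjusted p = 7.69e-05). Ecm2 and Omd, the neighbours of Aspn and Ogn, both fell in PAP vs CHR (−2.19 ± 0.26 and −1.53 ± 0.36) and remained lower in SCC vs CHR (−1.31 ± 0.26 and −1.09 ± 0.36). Podnl1 was the opposite case, with 75.5 ± 35.1 in CHR and 255 ± 130 in SCC, a rise of 1.09 ± 0.29 (adjusted p = 0.00961).

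Other matricellular genes split in the same comparison. Of 21 measured, 1 rose and 10 fell in PAP vs CHR (median −1.04), 11 rose in SCC vs PAP (median 1.24), and 5 rose and 4 fell in SCC vs CHR (median 0.21). The shares of all genes were 23.3% higher and 29.3% lower for PAP vs CHR, 8.75% higher in SCC vs PAP, and 15.8% higher and 22.7% lower in SCC vs CHR. Tenascin X (Tnxb), a tenascin of normal connective tissue, went from 5300 ± 1757 in CHR to 89.4 ± 89.1 in PAP and 507 ± 491 in SCC, with a change of −3.76 ± 0.53 in SCC vs CHR (adjusted p = 0.000219). Tenascin N (Tnn) went the other way with Tnc, from 1177 ± 841 in CHR to 5394 ± 3847 in SCC (1.99 ± 0.46, adjusted p = 0.00486, 6 of 6 mice). Thrombospondin 2 (Thbs2), a regulator of collagen assembly and blood vessel growth, rose from 13385 ± 6625 to 38127 ± 18435 (1.38 ± 0.33, adjusted p = 0.00633). Among the CCN genes, Wisp1 (CCN4) rose by 1.34 ± 0.35 in SCC vs CHR (adjusted p = 0.0101), and Wisp2 (CCN5) fell by 1.15 ± 0.43 (adjusted p = 0.0479). Osteopontin (Spp1) rose in SCC vs PAP by 1.99 ± 0.55 (adjusted p = 0.0386), with a mean of 2997 ± 4528 in SCC.

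Of 12 fibrillar and associated collagen genes, among them partners of the SLRPs, 8 fell in PAP vs CHR (median −1.38, against 29.3% of all genes) and 4 were not called. In SCC vs PAP 7 rose (median 1.67, against 8.75% of all genes) and 5 were not called, and in SCC vs CHR 1 rose and 1 fell. Col12a1, which bridges fibrils and their surroundings, was the one that rose over CHR, from 23081 ± 9105 to 84362 ± 38673 (1.78 ± 0.28, adjusted p = 0.000431), and Col14a1, a related collagen, the one that fell (−1.49 ± 0.54, adjusted p = 0.0428). Col3a1 fell in PAP vs CHR by 2.65 ± 0.61 (adjusted p = 0.00271).

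Of 20 genes for enzymes that build glycosaminoglycan chains, 8 fell and 0 rose in PAP vs CHR (median −0.43), against 29.3% of all genes lower and 23.3% higher. In SCC vs PAP 2 rose, a share near the 8.75% of all genes, and in SCC vs CHR 1 rose and 2 fell, against 15.8% and 22.7% of all genes. Xylt1, which adds the first sugar of the linkage to the core protein, fell by 1.12 ± 0.20 in PAP vs CHR (adjusted p = 0.000414) and was still lower in SCC than in CHR (−0.91 ± 0.20, adjusted p = 0.0032). The chondroitin sulphotransferase Chst11 fell in PAP vs CHR by 1.69 ± 0.34 and rose in SCC vs PAP by 1.14 ± 0.34 (adjusted p = 0.0497).

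Of 17 ligands, receptors and proteases tied to these proteins, 5 rose and 5 fell in PAP vs CHR, shares near those of all genes (23.3% and 29.3%). In SCC vs PAP 4 rose (8.75% of all genes), and in SCC vs CHR 3 rose and 2 fell (15.8% and 22.7% of all genes). The biglycan receptors Tlr4 and Tlr2 both fell in PAP vs CHR (−2.20 ± 0.27 and −1.33 ± 0.25). Itga9, a subunit of an integrin that binds tenascin C, fell in PAP vs CHR by 1.41 ± 0.21 and rose in SCC vs PAP by 1.15 ± 0.21. The proteoglycan-cleaving enzymes Adamts4 and Adamts5 went opposite ways in SCC vs CHR, with 1.73 ± 0.26 for Adamts4 (adjusted p = 0.000366) and −1.25 ± 0.21 for Adamts5 (adjusted p = 0.000712). Bmp1, the procollagen C-proteinase that also trims the biglycan precursor, rose from 2174 ± 373 in CHR to 4671 ± 1882 in SCC (0.97 ± 0.25, adjusted p = 0.00903).

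Genes with the profile most like each member were ranked by the root mean square difference of centred log2 levels over the 18 libraries, which share the same 6 mice. Nearest to Dcn were C4b (0.73), the muscle genes Cmya5 (0.76) and Ryr1 (0.77), Cilp (0.78) and C3 (0.81). Nearest to Lum were Igf1 (0.50), Col14a1 (0.55), Svep1 (0.59), Col3a1 (0.59) and Timp2 (0.62). Cilp was nearest to Rarres2 (0.54), Lyz2 (0.62), Pi16 (0.65), Serpina3n (0.67) and the muscle gene Ryr1 (0.68). Nearest to Postn were Col1a1 (0.64), Mmp11 (0.64), Pxdn (0.65), Lrrc17 (0.67) and Cthrc1 (0.67). Tnc was nearest to Col12a1 (0.61), Adamts4 (0.62), Adam12 (0.71), Spats2l (0.73) and Adamts16 (0.75). The differences of Dcn from Postn (2.22) and from Tnc (2.94) were the widest that Dcn had with any of the other 9 genes.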

How the data were processed

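The authors aligned mRNA reads of the 18 mouse libraries to mm10 (GRCm38) and counted reads per gene with HTSeq. They then scaled the counts and applied a variance-stabilizing transformation. Their methods also name a correction for batch effects after this transformation, and whether the deposited values carry it is not known here. The versions and the strandedness were not given in the sources used here. The deposited values are whole-number scores on the linear scale of that transformation, in which 0 reads appear as 39, so they are not counts and changes of low genes are understated. Of 14542 entries, 21 had a number in place of a symbol (at most 0.236% of a library's total) and were left out, and 0 columns were unmapped.

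The transformation was inverted with a zero level of 39.13, and in every library 100% of values under 100 were then those of whole reads, to within the rounding of the deposited values. Size factors came from the spacing of whole reads. Because the values were not counts, a count test was not the main test. limma 3.58.1 (R 4.3.3) was run on log2(value + 1) of 14521 genes, with group and mouse as terms. The mouse was a block because the 3 samples of a number came from 1 animal. Deviations of same-numbered libraries from their group means correlated at −0.245 to 0.507. Mixed-model classes used a closed form checked against nlme 3.1.168 and pandas 2.3.3 handled the tables.

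The 10 genes, the gene lists and the tests were chosen with earlier results of these data known. Within each list the genes named were up to 5 called genes with the largest change per comparison, and profile neighbours were the nearest 5. The level relative to the fibroblast list was added after the data had been seen. Alternatives were no block, only the compared groups, log2(normalised count + 1), limma-voom on recovered reads, a pseudocount of 10, genes with a mean of at least 10 normalised counts (14327), centring on the library median, and leaving out each mouse. Lengths were exon unions of GENCODE M21. Replicates were separate animals, and intervals over mice cover both biological and technical spread.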

Additional observations from a re-analysis of the deposited data

Results flagged for a closer look

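Each of the 10 genes was examined in each of the 3 groups for a sample far from the other 5, as the gap to its nearest neighbour divided by the range of the group, against Dixon's 95% critical value. This gave 3 of 30 sets past that value. Its 5% rate holds for independent sets with normal spread. These counts were untransformed and the 30 sets shared libraries, so the rate cannot be applied to this count. In PAP, the papilloma of mouse 2 was far above the others for Prelp (0.864; 273 normalised counts, and 1.99 to 38.8 in the other 5). The papilloma of mouse 9 was far above the others for Aspn (0.689; 2052 normalised counts, with 657 the next highest). The papilloma of mouse 10 was far below the others for Tnc (0.641; 9895 normalised counts, with 14461 the next lowest). The papilloma of mouse 2 also had the highest muscle marker sum of the papillomas (29225, with 306 to 1305 in the other 5), and the part of this in its Prelp level was not tested.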

How the results depend on the processing

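In PAP vs CHR, 6 to 9 of the 10 genes passed the test in all alternatives, and in SCC vs CHR 3 or 4 did. In SCC vs PAP the 6 calls fell to 2 with no replicate block and to 0 with only the 2 groups in the fit, and ranged from 0 to 8 when 1 mouse was left out (0 without mouse 7 or 8, 1 without mouse 3). Over all genes, SCC vs PAP had 1430 calls, 810 with no replicate block, 0 with only the 2 groups (limma, lowest adjusted p 0.0512, 2830 at an unadjusted p under 0.05) and 0 to 1995 without 1 mouse (2450 and 2594 at an unadjusted p under 0.05 without mouse 7 and without mouse 8). The difference of Bgn in SCC vs CHR (0.06) ranged from −0.25 to 0.71 without 1 mouse. Of 390 fold changes under the alternatives, 341 kept direction and side of the threshold, 38 lost the call, 7 gained it and 4, all of Bgn, changed sign, and the cause was not tested. Centring libraries on their median moved the median of all genes in PAP vs CHR from 0.00 to 0.14 and the share of higher calls from 44.4% to 57.7% (in SCC vs CHR from 41.0% to 52.5%), with no change of sign among the 10 genes. Low levels, such as those of Fmod and of Ogn and Prelp in PAP, are limited by few reads.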
